A study of Mus musculus with 4 samples.

Results

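The genes that write, copy and remove DNA methylation were described across 4 RNA-seq libraries of mouse embryonic stem (ES) cells in which Atad2 was or was not knocked down. The set held 9 genes listed by name, of 21849 genes with a named transcript: the DNA methyltransferase genes Dnmt1, Dnmt3a and Dnmt3b, the co-factor gene Dnmt3l, the methylation-copying factor gene Uhrf1, the dioxygenase genes Tet1, Tet2 and Tet3, and the glycosylase gene Tdg. Of these, 8 had transcripts in the tables that could be named, all 8 passed the filter on low values, and Tdg had none. None of the 8 enzymes passed the test for a change after Atad2 knockdown. Their levels differed far more between genes than between conditions, from about 2 FPKM for Tet3 to over 80 FPKM for Dnmt3l. FPKM counts sequenced fragments relative to transcript length and library size, so levels can be compared between genes of different length.

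All libraries came from 46C mouse ES cells carrying a TAP tag (a peptide tag for purification) knocked in at the endogenous Atad2 gene, grown in serum with LIF on gelatin. The tagged cells came from drug-resistant colonies picked after gene targeting. The 2 si-ctrl libraries received a scrambled siRNA, and the 2 si-Atad2 libraries an siRNA against Atad2, an AAA ATPase with a bromodomain that binds acetylated histones. The study used 2 anti-Atad2 siRNAs, and the labels do not say which library received which, so a difference between the si-Atad2 libraries and a difference between siRNAs cannot be told apart. The paper's legend for this experiment states that RNA samples were sequenced 2 times, so libraries of a group may be repeat sequencing of 1 RNA rather than separate cultures. The SE, intervals and p-values given here then measure the spread between libraries only, with no independent cultures behind them. The authors' 95% intervals on FPKM did not overlap for 16.2% of 1990 transcripts between the si-ctrl libraries and for 30.5% between the si-Atad2 libraries, so the libraries of a group were counted separately.

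DNA methylation in mammals sits mainly on cytosine followed by guanine (CpG). Dnmt3a and Dnmt3b place new methyl groups, aided by Dnmt3l, which has no catalytic activity of its own, and Dnmt1 copies the pattern after replication when Uhrf1 has recognised the half-methylated CpG. Tet enzymes oxidise 5-methylcytosine, and Tdg excises the oxidised bases so that base excision repair can restore cytosine. ES cells express writers and erasers at once and tolerate the loss of methylation, unlike most somatic cells.

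Several of these genes have more than 1 start site, and the tables list transcripts of each, so the DNA just upstream of the starts that the transcript values below turn on is shown. Each sequence is from RefSeq on GRCm38.p6, is written 5′ to 3′ on the strand of its gene, and ends at the base before the start or before the first annotated exon base. Capitals mark CpG, the substrate of the enzymes themselves. The 2 Dnmt1 starts are the somatic start (chr9:20952980-20953229, minus strand) and the start known from oocytes (chr9:20959889-20960138, minus strand). The 2 Dnmt3a starts are that of the long form Dnmt3a1 (chr12:3806730-3806979, plus strand, the first of 2 RefSeq starts there) and that of the short form Dnmt3a2 (chr12:3891494-3891727, plus strand). The Dnmt3a1 transcript described below was placed at the second of the RefSeq starts (chr12:3807160), whose upstream bases are not shown. The Dnmt3l start is that of its most abundant named transcript (chr10:78049592-78049841, plus strand), and the 2 Uhrf1 starts lie at chr17:56303087-56303320 and chr17:56304063-56304312, both on the plus strand.
Dnmt1 somatic start: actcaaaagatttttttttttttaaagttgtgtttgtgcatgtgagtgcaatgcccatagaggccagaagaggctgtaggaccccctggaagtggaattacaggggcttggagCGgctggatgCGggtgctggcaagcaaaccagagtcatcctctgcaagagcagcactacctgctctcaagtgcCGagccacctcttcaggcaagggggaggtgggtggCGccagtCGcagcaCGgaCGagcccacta
Dnmt1 oocyte start: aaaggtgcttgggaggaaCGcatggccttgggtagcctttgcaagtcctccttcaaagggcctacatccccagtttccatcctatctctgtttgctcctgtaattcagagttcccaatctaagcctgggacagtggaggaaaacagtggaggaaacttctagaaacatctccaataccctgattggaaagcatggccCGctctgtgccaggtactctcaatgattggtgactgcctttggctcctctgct
Dnmt3a1 start: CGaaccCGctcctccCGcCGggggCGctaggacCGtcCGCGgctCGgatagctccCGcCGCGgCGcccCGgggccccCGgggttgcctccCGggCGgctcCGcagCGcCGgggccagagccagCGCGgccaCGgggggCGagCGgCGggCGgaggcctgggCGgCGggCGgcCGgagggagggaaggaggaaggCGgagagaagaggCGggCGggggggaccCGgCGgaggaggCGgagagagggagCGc
Dnmt3a2 start: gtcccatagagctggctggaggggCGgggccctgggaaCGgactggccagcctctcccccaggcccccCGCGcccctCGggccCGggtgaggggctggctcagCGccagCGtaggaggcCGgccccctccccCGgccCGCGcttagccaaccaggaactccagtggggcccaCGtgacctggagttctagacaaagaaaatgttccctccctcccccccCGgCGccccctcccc
Dnmt3l start: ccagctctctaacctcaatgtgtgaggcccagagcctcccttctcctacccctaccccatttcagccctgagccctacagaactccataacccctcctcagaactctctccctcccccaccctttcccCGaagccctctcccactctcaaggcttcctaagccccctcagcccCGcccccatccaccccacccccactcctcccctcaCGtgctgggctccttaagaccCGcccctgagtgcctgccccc
Uhrf1 upstream start: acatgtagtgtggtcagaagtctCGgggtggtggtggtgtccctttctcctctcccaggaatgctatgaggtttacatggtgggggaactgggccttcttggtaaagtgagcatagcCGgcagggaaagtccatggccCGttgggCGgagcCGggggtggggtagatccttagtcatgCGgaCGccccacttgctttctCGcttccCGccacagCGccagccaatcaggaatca
Uhrf1 downstream start: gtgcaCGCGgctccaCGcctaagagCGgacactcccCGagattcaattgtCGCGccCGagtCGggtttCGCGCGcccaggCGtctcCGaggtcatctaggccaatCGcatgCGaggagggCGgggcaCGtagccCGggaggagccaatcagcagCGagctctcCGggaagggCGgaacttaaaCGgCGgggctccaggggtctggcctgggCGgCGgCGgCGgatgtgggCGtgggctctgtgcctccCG

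In the sequences shown, the Dnmt3a1 start was preceded by 38 CpG and the downstream Uhrf1 start by 30, the Dnmt3a2 start by 15 and the upstream Uhrf1 start by 10, and the somatic Dnmt1 start by 7. The Dnmt3l start was preceded by 4 CpG and the oocyte start of Dnmt1 by 2. The median over 32851 RefSeq start windows was 6 CpG in the 250 bases before the start. The E2F-type letters TTTGGCGC, TTTCCCGC, TTTCGCGC and TTTGCCGC were searched on both strands from 250 bases before to 50 bases after each start, and at least 1 of them stood in 2.26% of all windows. Of the 16 windows of the 9 enzyme genes, 2 held such letters. The downstream Uhrf1 start had TTTCGCGC beginning 185 bases before the start, and a minor Dnmt1 start inside the gene had TTTGGCGC 33 bases after the start and TTTCGCGC on the other strand 219 bases before it; these matches did not overlap. A match of letters is a description of the sequence only.

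The targeted gene was checked first. Atad2 was at 34.1 and 36.0 FPKM in si-ctrl 1 and 2 and at 10.1 and 13.0 FPKM in si-Atad2 1 and 2. The si-Atad2 libraries lay below both controls, and the mean log2 ratio was -1.53 ± 0.08 (SE, 2 pairs; limma, Benjamini-Hochberg adjusted p = 7.6e-06). Depth is not given in the files; if the authors' intervals on FPKM reflect fragment counting alone, they correspond to 42500000 to 45600000 fragments per library. ES cell markers were abundant (8 of 8 named and tested), and 0 of the 8 passed the test. Their summed level was 2546 and 2496 FPKM in si-ctrl and 2432 and 2364 FPKM in si-Atad2. Pou5f1 was at 807 and 778 FPKM in si-ctrl and at 739 and 701 FPKM in si-Atad2. Of the 8, 6 were lower in both pairs and 1 higher, against 33.9% and 28.6% of all genes. An unadjusted p under 0.05 in limma was reached by 3 of the 8 and by 16.0% of all genes. Of 14 markers of differentiated and feeder cells, 12 had named transcripts, 7 reached a mean of 1 FPKM, 0 passed the test, and their summed level was 20.4 to 20.9 FPKM in the controls and 18.8 to 20.2 FPKM after knockdown. In bulk RNA, fewer cells of a type and less RNA per cell cannot be told apart.

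Each enzyme was then compared between conditions as the log2 ratio of si-Atad2 to si-ctrl FPKM within each pair of same-numbered libraries, after adding 1 FPKM. Over all genes, 212 of 10712 tested had an adjusted p under 0.05 in limma, or 1.98%. For the enzymes the count was 0 of 8. At an unadjusted p under 0.05 the count was 2 of 8 (Dnmt3l and Tet2), where 16.0% of all genes reached it. Over the 8 enzymes the 95% intervals of the mean ratio lay between 0.786-fold and 1.33-fold under the transcript naming used. The median log2 ratio was 0.00029 for the enzymes and -0.0084 for all genes tested.

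**Figure D1:**
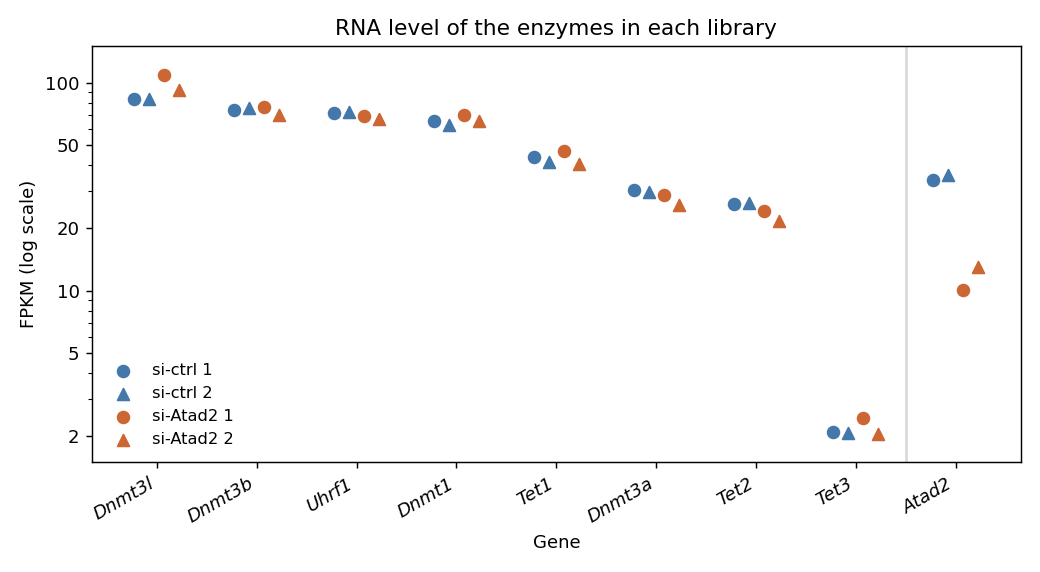
RNA level in FPKM (log axis) of the 8 enzymes with named transcripts and of Atad2 in each library, with circles for replicate 1 and triangles for replicate 2, blue for si-ctrl and orange for si-Atad2. The 4 points of each enzyme lie close together, from about 2 FPKM for Tet3 to 83.3 to 109 FPKM for Dnmt3l, while Atad2 falls from 34.1 and 36.0 to 10.1 and 13.0 FPKM.

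Among the genes that place new methyl groups, Dnmt3b was at 74.2 and 75.4 FPKM in si-ctrl 1 and 2 and at 76.5 and 69.6 FPKM in si-Atad2 1 and 2. Its groups overlapped, the pairs had opposite signs, and the mean log2 ratio was -0.03 ± 0.06 (SE, 2 pairs; adjusted p = 0.84). Dnmt3a, which encodes the other de novo enzyme, was at 30.6 and 29.7 FPKM in si-ctrl and at 29.0 and 25.9 FPKM in si-Atad2. Both si-Atad2 values lay below both controls, with log2 ratios of -0.08 and -0.19, but the mean of -0.13 ± 0.07 had an adjusted p of 0.36. Dnmt3b exceeded Dnmt3a by 2.42 to 2.69 times in the 4 libraries.

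Dnmt3l, which encodes the inactive partner that stimulates Dnmt3a and Dnmt3b, had the largest mean ratio of the set and the lowest unadjusted p. It was at 83.6 and 83.3 FPKM in si-ctrl 1 and 2 and at 109 and 92.0 FPKM in si-Atad2 1 and 2. Both si-Atad2 libraries lay above both controls, which differed from each other by only -0.0044 on the log2 scale. The pairs gave log2 ratios of 0.38 and 0.14, and the si-Atad2 libraries differed from each other by -0.24, close to the mean ratio of 0.26 ± 0.07 (SE; adjusted p = 0.083). The value also depends on transcripts of its locus that could not be named. Those of 958 bases (29.5 to 30.9 FPKM over the libraries) and 1984 bases (0.0486 to 0.0983 FPKM) were not counted as Dnmt3l. No annotated length there lay within 15 bases of theirs. Dnmt3l shares its locus in the tables with Aire, and a transcript of 1642 bases there was 14 bases from the length of a Dnmt3l transcript and 11 bases from that of an Aire transcript within the locus. It was at 125 and 127 FPKM in si-ctrl and at 127 and 119 FPKM in si-Atad2, more than all named Dnmt3l transcripts together. Counted as Dnmt3l, it gave 209 and 211 FPKM in the controls and 236 and 211 FPKM after knockdown, with a mean log2 ratio of 0.09 ± 0.06 and an adjusted p of 0.51. This alternative was chosen after the data were seen, and under either naming Dnmt3l had the highest level of the enzymes.

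Of the genes that maintain methylation, Dnmt1 was at 65.2 and 62.3 FPKM in si-ctrl and at 69.5 and 65.2 FPKM in si-Atad2. Both pairs had a small positive ratio (0.09 and 0.07), the groups overlapped, and the mean of 0.08 ± 0.06 did not pass the test (adjusted p = 0.56). Uhrf1, whose protein brings Dnmt1 to half-methylated CpG, was at 71.1 and 72.3 FPKM in si-ctrl and at 68.9 and 67.0 FPKM in si-Atad2. Here both si-Atad2 values lay below both controls, and the mean log2 ratio was -0.08 ± 0.06 (adjusted p = 0.58). The ratio of Uhrf1 to Dnmt1 was 1.09 and 1.16 in si-ctrl and 0.991 and 1.03 in si-Atad2, so the pair of genes stood at close to equal levels in every library.

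Of the dioxygenase genes, Tet1 was at 43.8 and 41.5 FPKM in si-ctrl and at 46.8 and 40.8 FPKM in si-Atad2. The groups overlapped, and the mean log2 ratio was 0.04 ± 0.06 (adjusted p = 0.84). Tet2 was at 26.0 and 26.4 FPKM in si-ctrl and at 24.1 and 21.6 FPKM in si-Atad2. Both si-Atad2 values of Tet2 lay below both controls, with log2 ratios of -0.11 and -0.28, and the mean of -0.19 ± 0.07 had an unadjusted p of 0.019 and an adjusted p of 0.20. With transcripts named by length alone, which keeps only those of 6368 and 9181 bases for Tet2, the log2 ratio was -0.71 (adjusted p = 0.38). That value rests on 1 library, as the 9181-base transcript was at 3.50 FPKM in si-ctrl 2 and listed at 0 elsewhere. The 6368-base transcript had log2 ratios of 0.04 and -0.13. Tet3, known from the zygote and from neurons, was at 2.08 and 2.07 FPKM in si-ctrl and at 2.44 and 2.04 FPKM in si-Atad2, with overlapping groups (mean log2 ratio 0.07 ± 0.09; adjusted p = 0.75). Tet1 made up 60.9% and 59.3% of the summed Tet level in si-ctrl and 63.8% and 63.3% in si-Atad2, and Tet3 made up 2.90% to 3.33% over the 4 libraries.

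**Figure D2:**
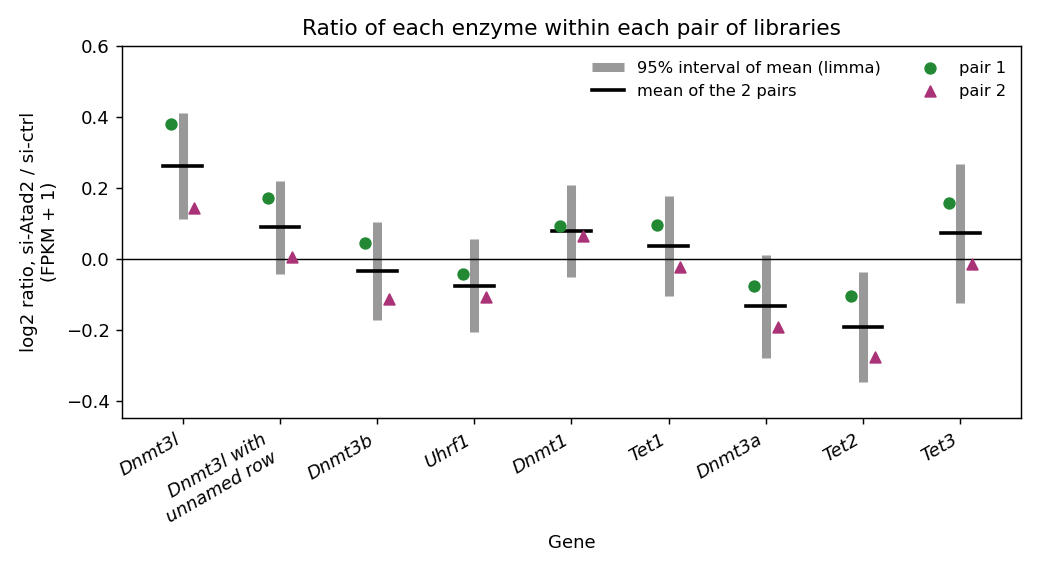
Log2 ratio of si-Atad2 to si-ctrl (FPKM + 1) for each enzyme, with a circle for pair 1, a triangle for pair 2, a black line for their mean and a grey bar for its 95% interval from limma; Dnmt3l is drawn without and with the unnamed 1642-base transcript. All means lie between -0.19 (Tet2) and 0.26 (Dnmt3l), the bars of Dnmt3l (without that transcript) and Tet2 exclude 0 before adjustment, and the bar of Dnmt3l with it includes 0.

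In direction, 2 of the 8 enzymes were higher in both pairs (Dnmt3l and Dnmt1), against 28.6% of all genes, and 3 were lower in both pairs (Dnmt3a, Tet2 and Uhrf1), against 33.9% of all genes. Both si-Atad2 libraries exceeded both si-ctrl libraries for 1 enzyme (22.2% of all genes) and lay below them for 3 (26.7% of all genes). With 2 libraries in each group, an exact permutation test of a single gene cannot give a two-sided p below 0.333. The summed level of Dnmt1, Dnmt3a and Dnmt3b was 2.37 and 2.39 times that of the 3 Tet genes in si-ctrl and 2.39 and 2.49 times in si-Atad2.

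By mean si-ctrl level the order was Dnmt3l, Dnmt3b, Uhrf1, Dnmt1, Tet1, Dnmt3a, Tet2 and Tet3. Dnmt3l exceeded 94.4% of the genes tested, and Tet3 exceeded 13.3%. Uhrf1 and Dnmt1 changed places in 1 of the 4 libraries, and Dnmt3b exceeded Uhrf1 by only 1.04 to 1.11 times. Tet2 stood 9.87 to 12.7 times above Tet3, the widest step in the order. The other neighbours kept their order in the 4 libraries, by ratios between 1.10 and 1.62.

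Tdg, the glycosylase that completes active demethylation, has no value here. Its locus (GRCm38 chromosome 10, 82629828 to 82650799) is joined in the tables with that of Glt8d2. Of 3 transcripts there, that of 2153 bases had the length of Glt8d2 and 2 had the length of neither gene. The latter were at 0.168 to 0.244 FPKM in sum over the libraries, so that even if both were Tdg its tabulated level would be at most 0.244 FPKM. Tdg has a processed pseudogene in the annotation, and how fragments shared with it were treated is not given in the sources used here.

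The tables also list each transcript on its own, so the forms of each enzyme could be described. The authors' software divided fragments shared by overlapping transcripts, and the values of single forms therefore rest on that division. The Dnmt3a transcripts of 8913 and 9689 bases and the Uhrf1 transcripts of 3546 and 3426 bases matched no annotated length within 3 bases. Their form and start were inferred from annotated transcripts with ends moved to other annotated ends or to those of the locus. The 8 genes had 37 named transcripts, of which 21 were tested and 5 were listed at 0 in all libraries. In limma on 17545 transcripts the share called was 0% (0 transcripts, of the enzymes too), and 9.95% reached an unadjusted p under 0.05, against 5 of the 21 tested forms of the enzymes. The main Atad2 transcript itself had an adjusted p of 0.27 in that fit, so that fit did not call even the knockdown.

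Dnmt1 RNA was almost all from the somatic start. Transcripts of 1620 codons from this start held 94.6% to 95.9% of Dnmt1 FPKM over the 4 libraries. The transcript from the oocyte start (5251 bases, 1501 codons), preceded by the CpG-poor sequence shown above, was listed at 0 in all 4 libraries. Another form of 1501 codons, from the minor start inside the gene, was at 0.800 to 0.901 FPKM.

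Dnmt3a RNA was mostly the short form Dnmt3a2, which lacks the N-terminal part of Dnmt3a1 and is the form known from ES and germ cells. The 8913-base transcript with the structure of Dnmt3a2 (689 codons) was at 27.7 and 26.9 FPKM in si-ctrl and at 26.0 and 23.2 FPKM in si-Atad2. The 9689-base transcript of Dnmt3a1 (908 codons) was at 2.89 and 2.71 FPKM in si-ctrl and at 2.40 and 2.66 FPKM in si-Atad2. By these inferred structures Dnmt3a2 held 90.3% and 90.8% of the Dnmt3a level in si-ctrl and 89.8% and 89.6% in si-Atad2. The form from the start with 15 CpG before it was the abundant one. The scarce form was placed at the start at chr12:3807160, with 40 CpG upstream, and not at the start shown above with 38. Dnmt3a2 had a log2 ratio of -0.15 ± 0.07 (adjusted p = 0.56). A Dnmt3a transcript of 9735 bases, whose form was not inferred, was at 0.502 FPKM in si-Atad2 1 and listed at 0 elsewhere.

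Dnmt3b was split between forms with and without a pair of exons in the part that encodes the catalytic domain. The pair is exon 22 (chr2:153683608-153683677) and exon 23 (chr2:153684359-153684477) of the 24 exons, 70 and 119 bases on the plus strand of GRCm38, together 63 codons. Their joined sequence from GENCODE is shown because the level of the gene divides on it, with exon 23 in capitals.
Dnmt3b exons 22 and 23: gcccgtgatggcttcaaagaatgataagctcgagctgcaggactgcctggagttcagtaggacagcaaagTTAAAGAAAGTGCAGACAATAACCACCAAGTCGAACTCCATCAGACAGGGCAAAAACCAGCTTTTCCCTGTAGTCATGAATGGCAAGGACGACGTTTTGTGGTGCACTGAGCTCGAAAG

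Forms without these exons held 46.7% and 48.3% of Dnmt3b FPKM in si-ctrl and 46.5% and 51.6% in si-Atad2. The share was therefore near equal with and without the exons in all 4 libraries, and the si-Atad2 values spanned both controls. The abundant form with the exons (4207 bases) was at 39.5 and 39.0 FPKM in si-ctrl and at 40.9 and 33.7 FPKM in si-Atad2. Of the forms without them, that of 4130 bases was at 25.1 and 25.0 FPKM in si-ctrl and at 28.2 and 28.1 FPKM in si-Atad2. Both si-Atad2 values lay above both controls, as the summed values did for 22.2% of all genes. The same share was not computed for single transcripts. The form of 4015 bases, which also lacks a non-coding exon near the start, was at 8.15 and 11.1 FPKM in si-ctrl and at 6.46 and 7.84 FPKM in si-Atad2. This transcript had the lowest p of the enzymes' forms, with a log2 ratio of -0.37 ± 0.09 (unadjusted p = 0.0097), and did not pass the test (adjusted p = 0.42). The form of 4130 bases had an adjusted p of 0.50. All forms without the exons together were at 34.6 and 36.5 FPKM in the controls and 35.6 and 36.0 FPKM after knockdown. The non-coding exon near the start was also absent from the 4207-base form. Forms without that exon held 64.7% and 66.5% of Dnmt3b FPKM in si-ctrl and 62.1% and 59.6% in si-Atad2. This share was not tested, and no such share was computed over all genes.

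Uhrf1 had transcripts from both starts, each with a form of 782 and a form of 774 codons. The upstream start, with 10 CpG before it, held 81.0% and 79.7% of Uhrf1 FPKM in si-ctrl and 77.7% and 77.8% in si-Atad2. The downstream start, with 30 CpG before it, was at 13.5 and 14.7 FPKM in si-ctrl and at 15.4 and 14.9 FPKM in si-Atad2, while the upstream start was at 57.6 FPKM in both si-ctrl libraries and at 53.6 and 52.1 FPKM in si-Atad2. The groups did not overlap for either start, though for the downstream start si-ctrl 2 and si-Atad2 2 were close. Over all genes, both si-Atad2 libraries lay above both controls for 22.2% and below them for 26.7%. The same share was not computed for start sites. The share of the start was not tested, and the transcript of 3570 bases (upstream start, 782 codons) had a log2 ratio of -0.20 ± 0.07 with an adjusted p of 0.48.

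**Figure D3:**
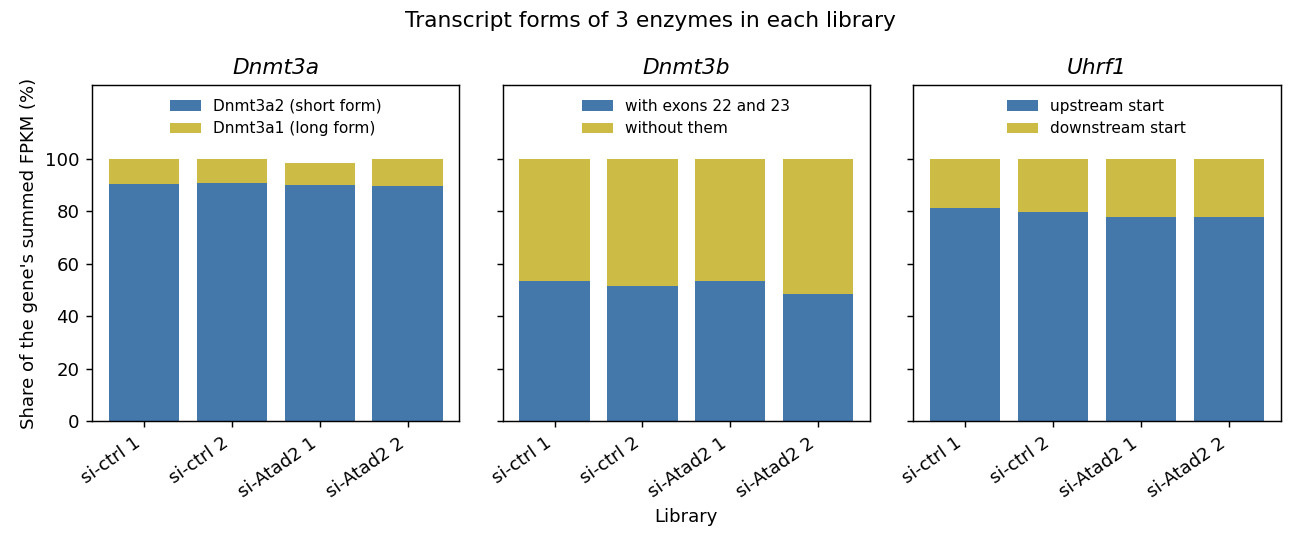
Share of the summed FPKM of Dnmt3a, Dnmt3b and Uhrf1 (in %, stacked bars) held by alternative transcript forms in each library. Dnmt3a2 holds about 90% of Dnmt3a throughout (2 transcripts of low level make up what the bars lack), Dnmt3b divides nearly evenly on exons 22 and 23, and the upstream start of Uhrf1 holds 81.0% and 79.7% in si-ctrl and 77.7% and 77.8% in si-Atad2.

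Tet1 was dominated by 1 transcript of 14082 bases, with 92.6% to 94.3% of its FPKM. Dnmt3l was nearly all in the 1669-base transcript of 421 codons (80.9 and 79.8 FPKM in the controls, 106 and 89.5 FPKM after knockdown), apart from the unnamed transcripts above. Tet3 had a single transcript above 0, of 10906 bases and 1668 codons. For Tet2 the division among long transcripts was not stable between libraries. The transcript of 9181 bases was at 3.50 FPKM in si-ctrl 2 and listed at 0 in the other 3 libraries, and that of 9205 bases was at 6.67 FPKM in si-ctrl 2 and at 10.1 to 11.7 FPKM in the others.

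Genes that act with the enzymes were read from the same fit. In 8 lists of related genes, among them Polycomb and H3K9 genes for comparison, 106 of 112 genes had named transcripts, 102 were tested and 2 passed (1.96%, against 1.98% of all genes). The gene that rose was Mat2b, which encodes the regulatory subunit of the synthetase of S-adenosylmethionine, the methyl donor of the Dnmt enzymes. Mat2b was at 43.7 and 45.1 FPKM in si-ctrl and at 69.1 and 69.8 FPKM in si-Atad2. The libraries of each group lay close together and the groups far apart, with a log2 ratio of 0.63 ± 0.06 (adjusted p = 0.00045). The call was lost without a filter on low values (0.63, adjusted p = 0.51), without si-ctrl 1 (0.61, adjusted p = 0.064) and without si-ctrl 2 (0.66, adjusted p = 0.054). Mat2a, the catalytic subunit, was at 101 and 105 FPKM in si-ctrl and at 105 and 115 FPKM in si-Atad2 (log2 ratio 0.09 ± 0.06; adjusted p = 0.50). The gene that fell was Gadd45g, of a family of stress-response genes linked to repair-based demethylation. It was at 15.2 and 13.3 FPKM in si-ctrl and at 11.8 and 10.6 FPKM in si-Atad2 (log2 ratio -0.32 ± 0.07; adjusted p = 0.048), and this call was lost in 10 of the alternatives, among them removal of the trend with GC content (-0.29, adjusted p = 0.11) and the fit without the replicate block (-0.32, adjusted p = 0.13).

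The list of methyl donor and 2-oxoglutarate metabolism had 16 of 17 genes tested, 1 higher (Mat2b) and 0 lower, with 10 of the 16 lower in both pairs (33.9% of all genes) and a median log2 ratio of -0.09. Mthfd1, a folate-cycle enzyme and the most abundant of the list beside Mat2a, was at 103 and 101 FPKM in si-ctrl and at 95.1 and 94.5 FPKM in si-Atad2 (adjusted p = 0.42). The base excision repair list had 12 of 14 genes tested, 0 higher and 1 lower (Gadd45g), with a median of 0.02. Its most abundant genes were Parp1, a strand-break sensor, at 163 to 173 FPKM over the libraries, and Gadd45a at 43.1 to 53.1 FPKM, and neither passed (adjusted p = 0.59 and 0.44).

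Of the partners of maintenance methylation, 10 of 11 were tested and 0 passed, with log2 ratios from -0.43 to 0.14 (median -0.0036). The lowest was that of Dppa3 (-0.43 ± 0.10; adjusted p = 0.0502), at 8.31 and 9.89 FPKM in si-ctrl and at 6.95 and 6.03 FPKM in si-Atad2. Hells, a remodelling ATPase needed for normal methylation, was at 107 and 116 FPKM in si-ctrl and at 123 and 122 FPKM in si-Atad2 (adjusted p = 0.29). Pcna, the replication clamp that also binds Dnmt1, was at 109 and 97.0 FPKM in si-ctrl and at 80.6 and 92.5 FPKM in si-Atad2 (adjusted p = 0.15). Of the readers of methylation, 11 of 12 were tested and 0 passed (median 0.0014), with Trim28 at 545 to 644 FPKM and Zfp57, which guards imprints with it, at 125 to 135 FPKM. Of the Tet partners, CXXC proteins and regulators of these genes, 9 of 11 were tested, 0 passed and 6 of the 9 were lower in both pairs, against 33.9% of all genes (median -0.11). Lin28a, an RNA-binding protein of pluripotent cells, was at 87.1 and 91.9 FPKM in si-ctrl and at 75.3 and 80.5 FPKM in si-Atad2 (adjusted p = 0.12), and Hcfc1, a partner of the Tet-binding enzyme Ogt, was at 54.6 to 59.6 FPKM (adjusted p = 0.63).

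The last list held 15 germline genes, many of which are silenced by promoter methylation in somatic cells, and all 15 were tested. None passed (0 of 15), while 12 were higher in both pairs and 1 lower, against 28.6% and 33.9% of all genes, with a median log2 ratio of 0.13. Their summed level was 189 and 187 FPKM in the controls and 226 and 196 FPKM after knockdown, so the first si-Atad2 library stood highest. Over all genes the ratio of pair 1 fell with GC content (Spearman rho = -0.27). Whether this bears on the list was not tested. Tex19.1, a germline gene active in ES cells, was at 59.9 and 57.1 FPKM in si-ctrl and at 73.0 and 58.2 FPKM in si-Atad2 (adjusted p = 0.32). The related genes whose pair of ratios lay closest to that of Dnmt3l, by Euclidean distance over the 2 pairs among 102 genes, were Setdb2 (0.062), Tex101 (0.066) and Rpl10l (0.069). Their mean log2 ratios were 0.24, 0.27 and 0.21, and none of these 3 passed the test (adjusted p = 0.18, 0.17 and 0.18).

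For comparison, 0 of 18 tested Polycomb genes and 0 of 11 tested H3K9 methyltransferase and HP1 genes passed, with median log2 ratios of -0.0078 and 0.0030. Their most abundant genes had ratios of 0.01 (Jarid2) and -0.02 (Mtf2), and of -0.11 (Cbx1) and 0.13 (Cbx5).

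**Figure D4:**
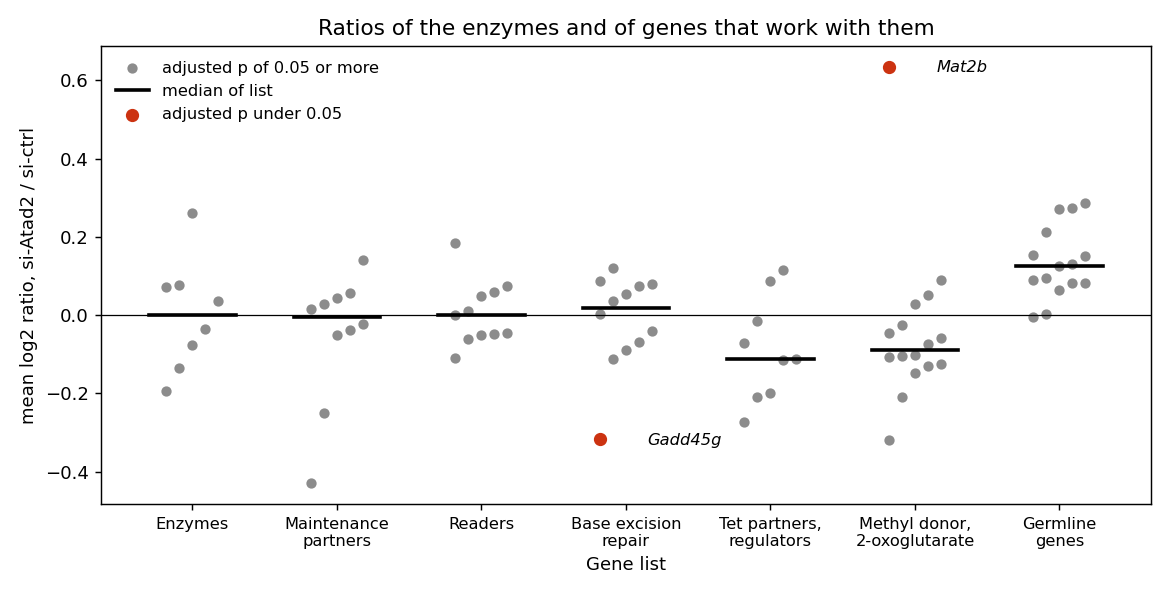
Mean log2 ratio of si-Atad2 to si-ctrl for the tested genes of each list (points) and the list median (black line), with genes of adjusted p under 0.05 in red. Mat2b (0.63) and Gadd45g (-0.32) are the red points, the 8 enzymes spread around 0, and the germline genes have a median of 0.13.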

How the data were processed

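RNA-seq (TruSeq, total RNA, paired ends, 4 libraries in a single lane) of 2 si-ctrl and 2 si-Atad2 libraries was analysed. The authors aligned reads with TopHat and ran Cuffdiff on each pair of same-numbered libraries, per the submitters' processing notes, with no version; a supplement names Bowtie. The deposited values are FPKM per transcript with 95% intervals, scaled within each run. The notes name mm9, but the positions in the tables are those of GRCm38. The deposited test tables hold the authors' own fold changes and p-values and were not used.

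Of 59120 transcripts, those under 200 bases were dropped, and the rest were named from GENCODE vM21 by length within 3 bases (26645; annotated transcripts were first trimmed to the ends of the locus, or extended to them by at most 20 bases) or as the only gene of their locus (17641). FPKM were summed per gene. Genes with a mean of at least 1 FPKM were tested with limma 3.58.1 (R 4.3.3; 2 log2 ratios with a pseudocount of 1 FPKM, eBayes with trend) and Benjamini-Hochberg adjustment, two-sided, at 0.05. Folds on this scale understate changes of low genes. Strand use in counting is not given in the sources used here, so overlapping genes are uncertain. Pairs come from the authors' tables; same-numbered libraries did not deviate together (Pearson r = -0.014 over genes).

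Members and lists were chosen with earlier results of these data known. Genes named beside the enzymes were the called genes of the lists, the 2 most abundant of each, and the 3 nearest to the enzyme of lowest p. Dppa3 was named after the data were seen, as its adjusted p was near 0.05. Alternatives were other pseudocounts, scalings, filters, namings, a GC correction, no block and left-out libraries.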

Additional observations from a re-analysis of the deposited data

How the results depend on the processing

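With 4 libraries, the count of enzymes called stayed at 0 under every alternative except rescaling to TPM, which gave 1 (Dnmt3l, adjusted p = 0.043, log2 ratio 0.30). Leaving out single libraries without the replicate block gave 0 to 2 enzymes: Dnmt3l (0.38) without si-Atad2 2, and Dnmt3a (-0.21) and Tet2 (-0.27) without si-Atad2 1. The lone library is then assumed to vary like the other group. The count of enzyme transcripts called was 0 throughout. As reported, the transcript fit called 0 of 17545 transcripts, so this count does not show that the forms were unchanged. The count of all genes called, 212, was 129 with median-of-ratios scaling, 0 without a filter on low values (1992 at an unadjusted p under 0.05), 138 without the replicate block, 138 without a trend, 32 with all transcript lengths, 99 with the GC trend removed, 46 with names by length alone, 0 to 2030 with single libraries left out (6 without si-ctrl 1, 0 without si-ctrl 2, 759 without si-Atad2 1, 2030 without si-Atad2 2) and, added after seeing the data, 123 with crossed pairs. The Atad2 ratio lost its call without a filter on low values (-1.53, adjusted p = 0.51) and without si-ctrl 2 (-1.49, adjusted p = 0.053), with a range of -1.70 to -1.36 with single libraries or pairs left out. The cause of these shifts was not tested.

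Of uncalled ratios, 8 changed sign with a single library left out. Without si-Atad2 2, Dnmt3b was 0.032 and Gadd45a 0.017. Without si-Atad2 1, Tet1 was -0.061, Tet3 -0.017, Jarid2 -0.087, Tex19.1 -0.0073 and Trim28 0.012. Without si-ctrl 2, Tet1 was -0.0021 and Mtf2 0.0044, and without si-ctrl 1 Jarid2 was -0.013. Mtf2 was 0.0096 as TPM, and with names by length alone Mthfd1 was 0.43 and Tet2 -0.71. The fit without the replicate block changed no call among the enzymes, and leaving out a whole pair leaves 1 ratio and no test. Across genes, the ratio of pair 1 fell with GC content (Spearman rho = -0.27) and that of pair 2 did not (0.09), and removing the trend called no enzyme. FPKM carry no counts, so depth limits single forms at low levels most.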
